A study of Mus musculus with 12 samples.

Results

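TNF and NF-κB signalling was described in the mouse left ventricle as a module of 36 genes, chosen by name: every row of the deposited tables whose symbol was on the list, in all 4 groups of the study. All 36 were found among 25319 genes, and 35 of them were among the 14965 genes with enough reads to be tested. Il6 was the gene that missed this filter. The module held 1 ligand and 2 receptors, 9 receptor adaptors and ubiquitin ligases, 3 genes of the death branch, 8 kinases and their partners, 5 NF-κB subunits, 5 inhibitors and 3 target genes.

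Libraries came from the left ventricles of 12 male C57BL/6 mice, 3 in each of 4 groups, which had surgery when 8 weeks old and gave tissue when 12 weeks old. In transverse aortic constriction (TAC) a clip narrows the aortic arch and loads the ventricle with pressure; this was done with dantrolene (TAC dantrolene) or without it (TAC control), and sham-operated mice, whose arch was exposed but not tied, likewise made up a sham dantrolene and a sham control group. Dantrolene, an inhibitor of ryanodine receptor calcium channels, was taken orally for 4 weeks, in a daily dose of 30 mg per kg. The labels call the mice without it only controls and name no vehicle, and the study's title ties the drug to TNF-α, NF-κB and NLRP3 signalling.

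TNF binds TNFR1 and TNFR2, and TNFR1 gathers TRADD, RIPK1, TRAF and cIAP proteins into a complex whose ubiquitin chains hold the TAK1 and IKK kinases. IKK phosphorylates IκB proteins, which frees NF-κB dimers to enter the nucleus, where they switch on adhesion molecules and cytokines and also their own brakes, IκBα (Nfkbia) and A20 (Tnfaip3). A side branch through FADD and caspase-8 can lead to cell death and is held back by c-FLIP (Cflar). Most of these steps are protein modifications, which RNA counts do not measure, and in a whole ventricle the transcripts come from muscle, endothelial, fibroblast and immune cells together, so that fewer cells of a type and less RNA per cell cannot be told apart.

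The libraries held 25766378 to 38363106 counted reads. Cardiomyocyte markers (8 of 8 tested) summed to 46226 to 64606 CPM (read counts scaled to library size) in the 12 libraries. The first principal component held 41.7% of the variance, and on it a single library from each group stood apart: TAC dantrolene 1, TAC control 1, sham dantrolene 3 and sham control 3, with scores of 34.7 to 85.6 against -50.7 to -22.7 in the other 8. Against the other 8 libraries, 6 of the 35 members were higher in every one of these 4 (17.1%, against 11.6% of all genes tested) and 8 were lower in every one (22.9%, against 10.3%). Tnfrsf1a, Tradd, Traf1, Fadd, Relb and Nfkbib were the higher ones, and Birc2, Birc3, Map3k7, Tab2, Ikbkb, Ikbkg, Nfkb1 and Tnfaip3 the lower ones. Across members, the difference between these 4 libraries and the rest ran against exonic length (Spearman rho -0.39 over 35 members, and -0.40 over 14911 genes tested that have a length), as a description of points that share the same libraries. The 10 macrophage markers summed to 849 to 1148 CPM in the 4 libraries and 332 to 731 CPM in the other 8, and their part in any result was not tested.

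Per length of transcript, the module ran over more than 3 orders of magnitude, as the plot of deposited FPKM values (fragments scaled to transcript length and library size) shows. Tnfrsf1a, which encodes TNFR1, stood highest with a mean of 25.7 FPKM over the 12 libraries. Nfkbia followed with 22.4 FPKM, Rela, the p65 subunit, with 15.4 FPKM, Nfkbib with 13.4 FPKM and Tnip1 with 10.4 FPKM. Since Nfkbia ran from 4.29 to 52.0 FPKM between libraries and Tnfrsf1a from 18.9 to 33.2 FPKM, these neighbours in rank did not differ beyond their spread. The ligand itself was low: Tnf averaged 0.604 FPKM, rank 30 of 36, on 5 to 95 reads per library. Below it stood Traf6, Tnfaip3, Rel, Traf1 and Tab3 (0.111 FPKM), and Il6, an inflammatory cytokine and NF-κB target, came last with 0.0125 FPKM. Il6 had 0, 2 and 0 reads in TAC dantrolene mice, 0, 4 and 2 reads in TAC control mice, 0, 2 and 0 reads in sham dantrolene mice and 3, 1 and 1 reads in sham control mice, so that no difference was detectable at this depth. The median member had 1.68 FPKM, against 2.15 FPKM for all genes tested, and 16 of 35 members lay above that of all genes.

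**Figure D1:**
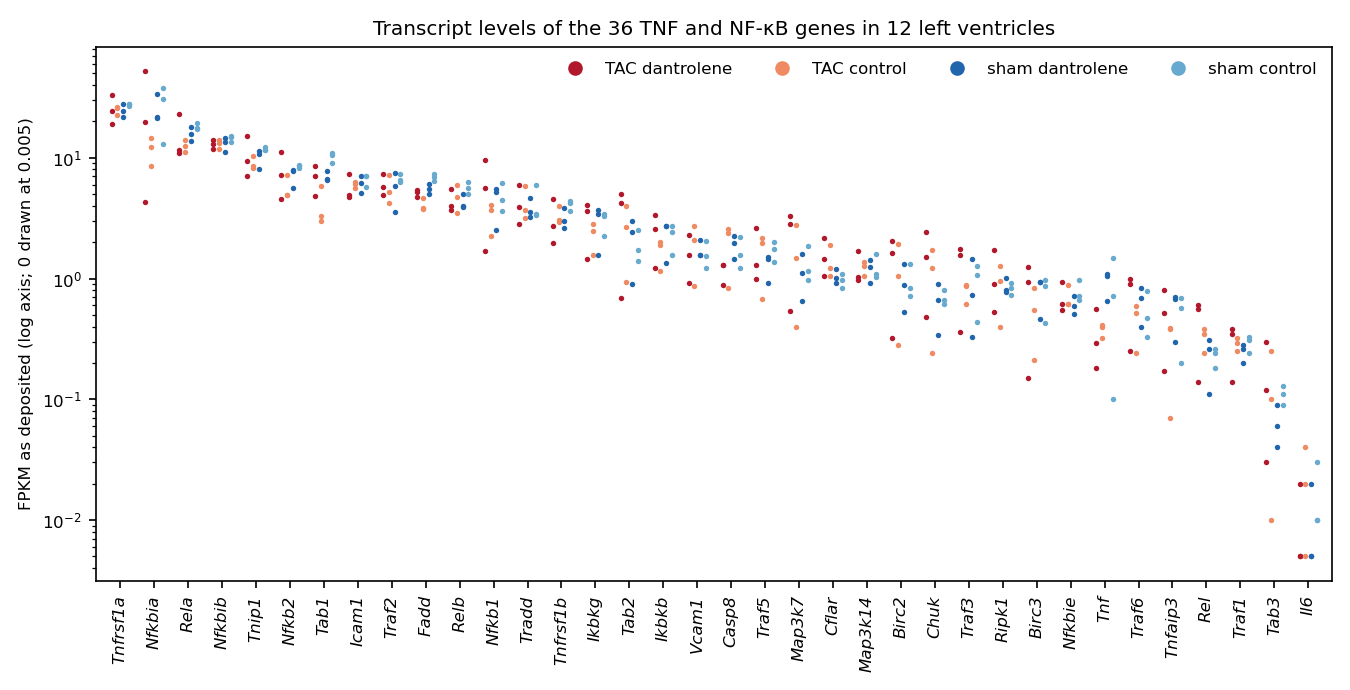
Deposited FPKM (log axis, values of 0 drawn at 0.005) of the 36 genes in each of the 12 libraries, coloured by group and ordered by mean. Receptor Tnfrsf1a, inhibitor Nfkbia and subunit Rela lead, Tnf lies near 0.6 FPKM, and Il6 lies at or close to 0 in every library.

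What the drug altered under pressure overload was read from TAC dantrolene against TAC control mice. No member passed an adjusted p of 0.05 in edgeR's quasi-likelihood test or in DESeq2, where edgeR called 0% of all genes tested (0 genes, DESeq2 12 genes). At an unadjusted p under 0.05, 1 of 35 members was found, Casp8, against 3.25% of all genes tested (486 genes). In no member did the 3 TAC dantrolene libraries all lie above or all lie below the 3 TAC control libraries, against 2.68% of all genes higher and 2.08% lower. With the replicate number as a block, 0 of 35 members had such a p, against 6.74% of genes (979 genes), and Casp8 was at an unadjusted p of 0.0610 by edgeR. Of the 35 members 20 had a positive log2 fold change (57.1%, against 51.8% of all genes). Their median was 0.10 against 0.02 over all genes, but 0.021 with the block, -0.0031 without TAC dantrolene 1 and -0.0082 without TAC dantrolene 2. By role 7 of 8 kinases and partners, 4 of 5 subunits, 3 of 5 inhibitors and 5 of 9 adaptors and ubiquitin ligases were positive. In the death branch 1 of 3 was positive, and 0 of 2 tested targets were, while the ligand and both receptors were negative.

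What overload altered without the drug was read from TAC control against sham control mice. No member was called there either: edgeR called 0% of all genes (0 genes, DESeq2 79 genes). Cflar and Tab1 had an unadjusted p under 0.05, 2 of 35 members against 7.93% of all genes tested (1186 genes). The groups did not overlap for 4 members, with Cflar and Rel higher in every TAC control library (2 of 35, against 7.54% of all genes) and Tab1 and Nfkb2 lower in every one (2 of 35, against 9.82%). In all 21 of 35 members had a positive log2 fold change (60.0%, against 57.2% of all genes), with a median of 0.08 against 0.10 over all genes. This median was -0.029 without TAC control 1, -0.0021 without TAC control 3, -0.033 without the 4 libraries that stood apart and 0.18 without sham control 3. Epicardial and mesothelial markers were higher in the same comparison, with 5 of 6 tested at an unadjusted p under 0.05 in edgeR and none called over all genes, and a median log2 fold change of 3.86. Their 8 genes, none at 0 in all 12 libraries, summed to 37.7, 6.31 and 4.53 CPM in TAC control mice and 2.89, 1.75 and 1.59 CPM in sham control mice, and their part in any result was not tested. Both comparisons use the TAC control mice, so a gene that stood off in these mice moves in opposite directions in the 2 comparisons by construction.

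**Figure D2:**
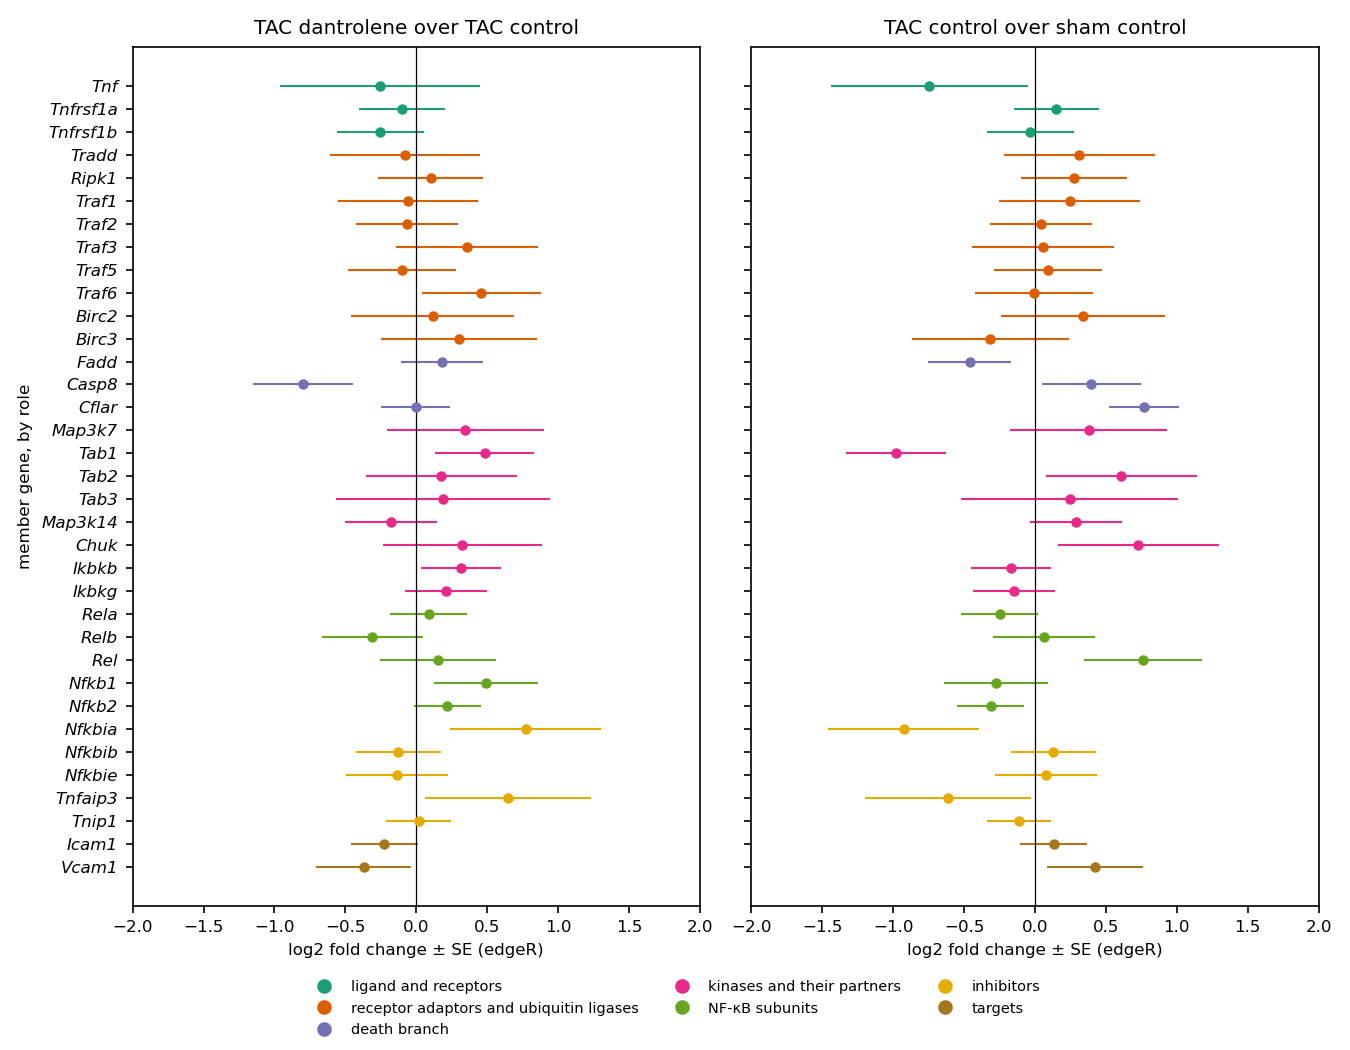
Log2 fold change ± SE from edgeR's quasi-likelihood fit (x axes) of the 35 tested members, grouped by role, for TAC dantrolene over TAC control (left) and TAC control over sham control (right). Casp8 at -0.80 is the lowest point on the left, and Cflar at 0.77 and Tab1 at -0.98 stand off on the right; no member passed the adjusted threshold.

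Among ligand and receptors, Tnf (chromosome 17, 35199381 to 35202007, minus strand, GRCm38) encodes the cytokine itself. It had 0.810, 0.863 and 0.313 CPM in TAC dantrolene mice and 0.844, 0.772 and 0.764 CPM in TAC control mice. The sham dantrolene mice had 1.82, 1.12 and 2.44 CPM, and the sham control mice 2.59, 1.18 and 0.189 CPM. No TAC library exceeded 0.863 CPM, while the sham control mice alone spanned more than 10-fold, from 5 to 95 reads. The log2 fold change was -0.25 ± 0.70 (SE) for TAC dantrolene over TAC control and -0.75 ± 0.69 for TAC control over sham control, with edgeR's adjusted p at 1.00 and 0.796. Without sham control 1 the second value turned to 0.20, and without TAC dantrolene 3 the first turned to 0.082.

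Tnfrsf1a, the main signalling receptor, had 88.8, 66.9 and 42.5 CPM in TAC dantrolene mice and 92.7, 65.3 and 54.7 CPM in TAC control mice, with 63.5, 49.4 and 72.5 CPM in sham dantrolene mice and 63.7, 59.5 and 68.3 CPM in sham control mice. In every group the library that stood apart was the highest, and the groups overlapped. Tnfrsf1b, which encodes TNFR2, had 17.3, 16.1 and 7.80 CPM in TAC dantrolene mice and 18.3, 17.8 and 13.1 CPM in TAC control mice. In the sham arm it had 15.5, 12.0 and 13.7 CPM with dantrolene and 14.7, 16.5 and 19.2 CPM without. TAC dantrolene 3 was the low value, and the other 11 libraries lay between 12.0 and 19.2 CPM.

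Of the 9 receptor adaptors and ubiquitin ligases, the log2 fold changes lay between -0.10 and 0.46 for TAC dantrolene over TAC control and between -0.32 and 0.34 for TAC control over sham control. Tradd, the first adaptor at TNFR1, ran from 4.95 to 16.7 CPM with the 4 libraries that stood apart highest, and Birc3, a cIAP ubiquitin ligase, from 1.05 to 4.90 CPM with the same 4 lowest. Traf3, which restrains NIK, ran from 3.22 CPM in sham dantrolene 3 to 11.7 CPM in TAC dantrolene 2 and 3. Traf6, a ubiquitin ligase also used by interleukin-1 and Toll-like receptors, had 2.63, 5.68 and 5.79 CPM in TAC dantrolene mice and 2.40, 3.78 and 4.09 CPM in TAC control mice. It had 5.41, 4.51 and 3.39 CPM in sham dantrolene mice and 3.08, 4.87 and 2.38 CPM in sham control mice. TAC dantrolene 2 and 3 were the highest of the 12, yet TAC dantrolene 1 was among the lowest, and the log2 fold change of 0.46 ± 0.42 (SE) over TAC control was not called (edgeR, adjusted p = 1.00).

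In the death branch, Casp8 and Cflar lie close together on chromosome 1, both on the plus strand (58795374 to 58847503 and 58711508 to 58758884). Casp8, the initiator caspase, had 4.29, 3.47 and 3.91 CPM in TAC dantrolene mice and 3.95, 8.02 and 8.35 CPM in TAC control mice. Sham dantrolene mice had 5.99, 6.88 and 5.79 CPM and sham control mice 6.74, 4.52 and 4.19 CPM. TAC control 2 and 3 held the 2 highest values of the 12, while TAC control 1 lay among the TAC dantrolene libraries. The mean was 3.89 ± 0.411 CPM in TAC dantrolene and 6.77 ± 2.45 CPM in TAC control mice (SD, n = 3 each). This gave a log2 fold change of -0.80 ± 0.35 (SE; edgeR, unadjusted p = 0.0414, adjusted p = 1.00), and -1.14 without the 4 libraries that stood apart (edgeR, adjusted p = 0.0598). For TAC control over sham control it was 0.40 ± 0.35 (edgeR, adjusted p = 0.787).

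Cflar, which encodes c-FLIP, the inhibitor of caspase-8 activation, had 13.9, 15.9 and 11.9 CPM in TAC dantrolene mice and 13.5, 11.3 and 16.99 CPM in TAC control mice. It had 8.44, 9.95 and 9.80 CPM in sham dantrolene mice and 8.13, 8.59 and 7.82 CPM in sham control mice. Every TAC library lay above every sham library, with or without the drug. The share of all genes that separate in this way was not counted. Within the control mice 7.54% of all genes were higher in every TAC library, and within the dantrolene mice 2.90%. Means were 13.9 ± 2.86 CPM in TAC control mice, against 8.18 ± 0.387 CPM in sham control mice (SD, n = 3 each). The log2 fold change of 0.77 ± 0.25 (SE) was not called over all genes (edgeR, unadjusted p = 0.00882, adjusted p = 0.512), and leaving out 1 library at a time moved it between 0.59 and 0.89. Without the 4 libraries that stood apart it was 0.74 (edgeR, adjusted p = 0.126). Fadd, the adaptor that brings in caspase-8, had 31.2, 19.9 and 21.0 CPM in TAC dantrolene mice and 29.4, 17.6 and 16.5 CPM in TAC control mice. In sham dantrolene mice it had 25.0, 20.7 and 29.5 CPM and in sham control mice 28.9, 24.7 and 33.7 CPM. TAC control 2 and 3 were the lowest libraries, and the log2 fold change of TAC control over sham control was -0.46 ± 0.29 (edgeR, adjusted p = 0.708). An antisense gene, Faddos, overlaps Fadd exons, and the strand setting of the counting is not given in the sources used here.

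**Figure D3:**
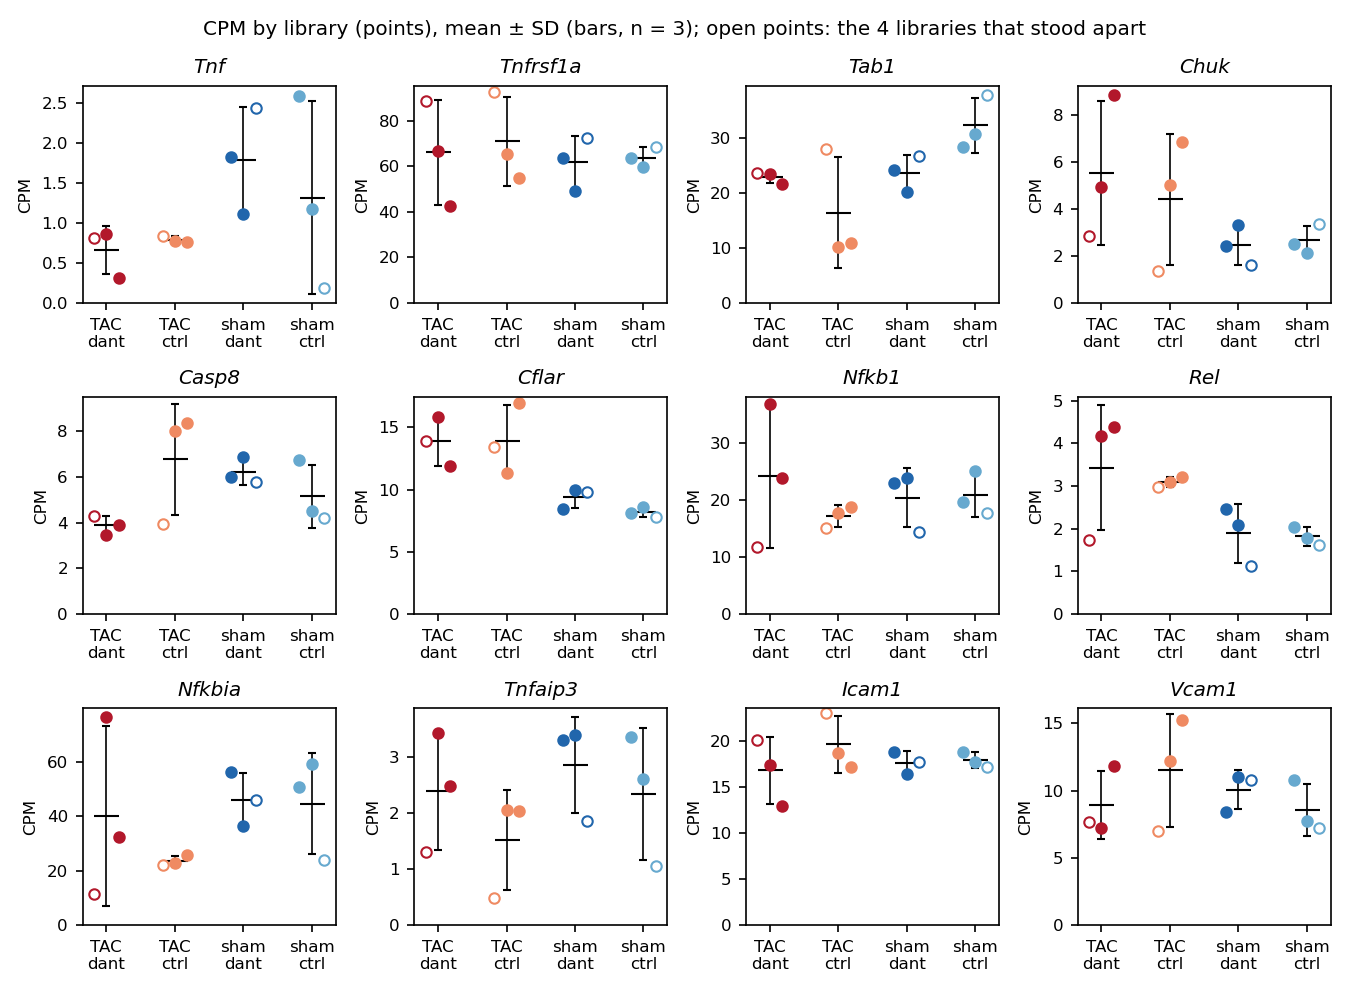
CPM of 12 members in each library (points; open points are the 4 libraries that stood apart) with group mean ± SD (n = 3), y axes from 0. Cflar lies higher in all 6 TAC than in all 6 sham libraries, Tab1 is lowest and Casp8 highest in TAC control 2 and 3, and Nfkbia spans its whole range within TAC dantrolene.

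Among the kinases, Tab1 encodes a binding partner that activates TAK1 (chromosome 15, 80133127 to 80161707, plus strand). It had 23.5, 23.4 and 21.6 CPM in TAC dantrolene mice and 28.0, 10.2 and 11.0 CPM in TAC control mice. Sham dantrolene mice had 24.0, 20.2 and 26.7 CPM and sham control mice 28.3, 30.6 and 37.8 CPM. TAC control 2 and 3 were the lowest libraries, against 20.2 CPM or more in the other 10, whereas TAC control 1 lay just under the lowest sham control mouse. The log2 fold change was -0.98 ± 0.35 (SE) for TAC control over sham control (edgeR, unadjusted p = 0.0159, adjusted p = 0.538) and 0.48 ± 0.35 for TAC dantrolene over TAC control (edgeR, adjusted p = 1.00). Without TAC control 1 the TAC control over sham control value was -1.61 and passed (edgeR, adjusted p = 0.0459). Without the 4 libraries that stood apart, which leaves 2 mice per group, it was -1.50 (edgeR, adjusted p = 0.0117), and the TAC dantrolene over TAC control value was 1.09 and passed (edgeR, adjusted p = 0.0291). Each of these passing values rests on the same TAC control 2 and 3, so they are not separate lines of evidence. The 4 libraries stood apart in these same data. Over all genes tested, 15 of 15302 passed in TAC control over sham control without TAC control 1. Without the 4 libraries, 484 of 15069 passed in that comparison and 478 of 15069 in TAC dantrolene over TAC control.

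Fibroblast markers stood highest in TAC control 2 and 3, the libraries with the lowest Tab1 and the highest Casp8. The 8 markers summed to 557 to 817 CPM in TAC dantrolene mice, to 560, 1394 and 1576 CPM in TAC control mice 1 to 3, to 694 to 851 CPM in sham dantrolene mice and to 523 to 690 CPM in sham control mice, and none was at 0. A negative log2 fold change of TAC dantrolene over TAC control was found for 7 of these 8, and a positive one of TAC control over sham control for 8 of 8. Mitochondrially encoded transcripts took 15.6% and 22.4% of the counts in TAC control 2 and 3, against 1.71% to 16.8% in the other libraries. The part of either in the Tab1 and Casp8 values was not tested.

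Chuk, which encodes the kinase IKKα, had 2.83, 4.92 and 8.86 CPM in TAC dantrolene mice and 1.38, 5.01 and 6.85 CPM in TAC control mice. It had 2.44, 3.33 and 1.61 CPM in sham dantrolene mice and 2.51, 2.13 and 3.36 CPM in sham control mice. Within each TAC group it ran more than 3-fold, with the library that stood apart lowest, and its TAC control and sham control values overlapped. Tab2, an adaptor that ties TAK1 to ubiquitin chains, was likewise lowest there, with 5.06, 17.2 and 22.9 CPM in TAC dantrolene mice and 6.71, 13.7 and 19.5 CPM in TAC control mice. The sham groups had 11.2, 13.8 and 5.42 CPM with dantrolene and 8.02, 10.9 and 7.26 CPM without. Log2 fold changes of TAC control over sham control were 0.73 ± 0.57 for Chuk and 0.61 ± 0.53 for Tab2 (SE; edgeR, adjusted p = 0.764 and 0.784). Ikbkb, the kinase IKKβ of the canonical pathway, was steadier, with 9.31, 14.2 and 12.1 CPM in TAC dantrolene mice and 8.48, 10.5 and 9.61 CPM in TAC control mice. It had 13.0, 12.9 and 8.39 CPM in sham dantrolene mice and 11.6, 12.2 and 8.43 CPM in sham control mice, and its log2 fold change of TAC dantrolene over TAC control was 0.31 ± 0.28 (edgeR, adjusted p = 1.00). Map3k7, which encodes TAK1, ran from 3.73 CPM in TAC control 1 to 19.9 CPM in TAC dantrolene 3. Ikbkg (NEMO), whose exons overlap G6pdx in part, ran from 15.7 to 30.8 CPM and Map3k14 (NIK) from 4.29 to 8.84 CPM, while Tab3 stayed under 2 CPM.

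Of the 5 NF-κB subunits, Rela had the highest mean FPKM. In read counts it had 52.6, 58.2 and 30.8 CPM in TAC dantrolene mice and 54.9, 44.3 and 34.2 CPM in TAC control mice. Sham dantrolene mice had 51.6, 45.3 and 51.0 CPM and sham control mice 50.1, 52.3 and 56.3 CPM. TAC dantrolene 3 and TAC control 3 were low, the groups overlapped, and the log2 fold changes were 0.09 ± 0.27 for TAC dantrolene over TAC control and -0.25 ± 0.27 for TAC control over sham control (SE; edgeR, adjusted p = 1.00 and 0.821). Nfkb1, the p105 precursor of the p50 subunit (chromosome 3, 135584655 to 135691547, minus strand), had 11.7, 36.8 and 23.9 CPM in TAC dantrolene mice and 15.1, 17.7 and 18.8 CPM in TAC control mice. It had 22.9, 23.8 and 14.4 CPM in sham dantrolene mice and 19.7, 25.1 and 17.7 CPM in sham control mice. TAC dantrolene held both the lowest and the highest of the 12 values. The log2 fold change over TAC control was 0.49 ± 0.37 (SE; edgeR, adjusted p = 1.00), and 0.052 without TAC dantrolene 2. TAC control over sham control gave -0.28 ± 0.37 (edgeR, adjusted p = 0.856).

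Rel, which encodes c-Rel, had 1.74, 4.17 and 4.38 CPM in TAC dantrolene mice and 2.98, 3.09 and 3.20 CPM in TAC control mice. In sham dantrolene mice it had 2.47, 2.08 and 1.12 CPM and in sham control mice 2.05, 1.78 and 1.62 CPM. All 3 TAC control libraries were above all 3 sham control libraries and close to each other, at a mean of 3.09 ± 0.114 CPM in TAC control mice, against 1.82 ± 0.213 CPM in sham control mice (SD, n = 3 each). The log2 fold change of 0.76 ± 0.42 (SE) had an adjusted p of 0.669 by edgeR. Nfkb2, the p100 precursor of p52, had 24.9, 34.3 and 24.9 CPM in TAC dantrolene mice and 26.6, 27.5 and 18.3 CPM in TAC control mice. It had 26.9, 27.4 and 25.2 CPM in sham dantrolene mice and 28.7, 28.3 and 32.9 CPM in sham control mice. It was lower in all 3 TAC control than in all 3 sham control libraries, with a log2 fold change of -0.31 ± 0.24 (SE; edgeR, adjusted p = 0.755) that was -0.15 without TAC control 3. For TAC dantrolene over TAC control it was 0.22 ± 0.24 (edgeR, adjusted p = 1.00). Relb, the partner of p52 in the non-canonical pathway, had 13.7, 11.4 and 9.08 CPM in TAC dantrolene mice and 21.5, 12.2 and 8.70 CPM in TAC control mice. Its values were 9.36, 9.15 and 15.2 CPM in sham dantrolene mice and 13.2, 11.0 and 16.4 CPM in sham control mice, highest in TAC control 1.

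Members that carry the κB consensus motif near their start are shown by promoter, since several inhibitors and subunits of the pathway are known targets of NF-κB itself. RefSeq (GRCm38.p6) windows of 300 bases, 250 before to 50 after a gene's start, were at hand for 30 of the 36 members, and 9 of these 30 (30.0%) held the motif on either strand in a window, against 12.6% of the 10575 genes tested that have a window and 8.46% of all 32851 windows. The 9 were Traf3, Map3k7, Rel, Nfkb2, Nfkbia, Nfkbie, Tnfaip3, Tnip1 and Il6, a description of letters and not of binding. Only exact matches to GGGRNNYYCC were counted, where R is A or G, Y is C or T and N is any base. Similar sites that depart from this pattern were not counted. Printed are the windows of both induced brakes and of the 2 subunits that did not overlap between TAC control and sham control mice, 5′ to 3′ on the gene's strand with the motif in capitals (overlapping matches joined): Nfkbia at chr12:55492598-55492897 (minus strand), Tnfaip3 at chr10:19015361-19015660 (minus strand), Rel at chr11:23770920-23771219 (minus strand) and the first of several windows of Nfkb2 at chr19:46304487-46304786 (plus strand).
Nfkbia: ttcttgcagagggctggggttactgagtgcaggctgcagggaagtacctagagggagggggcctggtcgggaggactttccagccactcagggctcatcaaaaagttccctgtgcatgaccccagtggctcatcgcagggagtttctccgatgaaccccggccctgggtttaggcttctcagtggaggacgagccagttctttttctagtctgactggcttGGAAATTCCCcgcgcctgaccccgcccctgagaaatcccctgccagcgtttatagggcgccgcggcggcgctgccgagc
Tnfaip3: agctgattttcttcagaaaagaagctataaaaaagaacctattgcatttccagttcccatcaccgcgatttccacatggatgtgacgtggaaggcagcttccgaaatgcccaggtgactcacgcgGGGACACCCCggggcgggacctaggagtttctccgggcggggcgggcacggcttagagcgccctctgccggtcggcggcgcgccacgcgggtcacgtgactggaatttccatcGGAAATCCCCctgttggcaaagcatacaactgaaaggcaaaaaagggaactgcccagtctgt
Rel: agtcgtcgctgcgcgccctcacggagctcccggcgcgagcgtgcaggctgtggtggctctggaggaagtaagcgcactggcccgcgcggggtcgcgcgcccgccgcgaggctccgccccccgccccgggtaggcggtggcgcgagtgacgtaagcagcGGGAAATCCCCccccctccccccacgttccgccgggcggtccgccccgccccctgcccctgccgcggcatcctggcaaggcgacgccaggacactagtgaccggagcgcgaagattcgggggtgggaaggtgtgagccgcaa
Nfkb2: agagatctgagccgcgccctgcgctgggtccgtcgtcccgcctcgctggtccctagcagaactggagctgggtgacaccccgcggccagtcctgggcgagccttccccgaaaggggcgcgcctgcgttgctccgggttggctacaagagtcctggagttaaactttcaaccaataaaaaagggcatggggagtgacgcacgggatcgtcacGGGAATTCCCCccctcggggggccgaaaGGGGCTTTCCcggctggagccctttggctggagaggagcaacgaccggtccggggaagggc
The capitals begin 29 bases before the start in Nfkbia, 125 and 12 bases before it in Tnfaip3, 92 bases before it in Rel, and 39 and 11 bases before it in Nfkb2. Tnfaip3 has another window, at chr10:19011914-19012213, which held no match and is not printed. The other windows of Nfkb2, at chr19:46305445-46305744 and chr19:46305680-46305979, held matches too and are not printed.

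Nfkbia encodes IκBα, which holds NF-κB in the cytoplasm and is resynthesised after it is degraded (chromosome 12, 55489410 to 55492647, minus strand). It had 11.3, 76.5 and 32.6 CPM in TAC dantrolene mice and 22.0, 22.7 and 25.9 CPM in TAC control mice. Sham dantrolene mice had 56.2, 36.3 and 46.0 CPM and sham control mice 50.8, 59.4 and 24.0 CPM. The 3 TAC control mice lay within 4 CPM of each other, while TAC dantrolene held both the lowest and the highest library of the study. Means were 40.1 ± 33.2 CPM in TAC dantrolene, 23.5 ± 2.06 CPM in TAC control mice, and 44.7 ± 18.5 CPM in sham control mice (SD, n = 3 each). The log2 fold change was 0.77 ± 0.53 (SE) for TAC dantrolene over TAC control and -0.10 without TAC dantrolene 2, and it was -0.93 ± 0.53 for TAC control over sham control (edgeR, adjusted p = 1.00 and 0.678). Without the 4 libraries that stood apart these were 1.16 and -1.20 (edgeR, adjusted p = 0.0861 and 0.0753).

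Tnfaip3, the ubiquitin-editing enzyme A20, had 1.30, 3.43 and 2.47 CPM in TAC dantrolene mice and 0.488, 2.05 and 2.03 CPM in TAC control mice. It had 3.31, 3.39 and 1.86 CPM in sham dantrolene mice and 3.36, 2.61 and 1.06 CPM in sham control mice. In every group the library that stood apart was the lowest, and the log2 fold change of TAC dantrolene over TAC control was 0.65 ± 0.58 (SE; edgeR, adjusted p = 1.00). Tnip1, a partner of A20, had 36.04, 42.7 and 29.8 CPM in TAC dantrolene mice and 42.5, 36.4 and 28.3 CPM in TAC control mice. Its values in the sham arm were 36.7, 34.5 and 33.7 CPM with dantrolene and 37.5, 37.0 and 41.3 CPM without, a narrow range in which all groups but the 2 sham groups overlapped. Nfkbib, which encodes IκBβ, had 46.5, 27.8 and 26.1 CPM in TAC dantrolene mice and 46.0, 35.2 and 28.3 CPM in TAC control mice. It had 30.5, 24.8 and 42.5 CPM in sham dantrolene mice and 30.6, 31.6 and 37.8 CPM in sham control mice, highest in the 4 libraries that stood apart. Its exons overlap those of Sirt2, a gene on the opposite strand, in a short stretch. Nfkbie, which encodes IκBε, had 2.51, 2.10 and 1.38 CPM in TAC dantrolene mice and 2.40, 1.76 and 2.44 CPM in TAC control mice. It had 1.51, 1.84 and 1.69 CPM in sham dantrolene mice and 1.85, 1.59 and 2.80 CPM in sham control mice, and no pair of groups was separate.

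Both adhesion molecules that NF-κB induces on endothelium were measured well. Icam1 had 20.1, 17.5 and 12.9 CPM in TAC dantrolene mice and 23.1, 18.7 and 17.2 CPM in TAC control mice. It had 18.9, 16.4 and 17.8 CPM in sham dantrolene mice and 18.9, 17.8 and 17.2 CPM in sham control mice, a spread of less than 2-fold over all 12 libraries. Vcam1 had 7.65, 7.24 and 11.8 CPM in TAC dantrolene mice and 7.02, 12.2 and 15.3 CPM in TAC control mice. It had 8.37, 11.0 and 10.8 CPM in sham dantrolene mice and 10.8, 7.70 and 7.22 CPM in sham control mice. TAC control 3 was the highest and TAC control 1 the lowest of the study, so the spread within that group covered the others. Log2 fold changes of TAC dantrolene over TAC control were -0.22 ± 0.24 for Icam1 and -0.37 ± 0.34 for Vcam1 (SE; edgeR, adjusted p = 1.00 for both), and for Vcam1 in TAC control over sham control it was 0.42 ± 0.34 (edgeR, adjusted p = 0.768).

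Sham dantrolene against sham control mice addressed the drug without overload. No member was called by edgeR (0% of all genes, 0 genes) or DESeq2 (0 genes), and 0 of 35 members had an unadjusted p under 0.05, against 0.715% of all genes tested (107 genes). With the replicate number as a block Tab1 had one (edgeR, unadjusted p = 0.0164, adjusted p = 0.462), 1 of 35 members against 7.79% of genes (1107 genes). Tab1, Tab3, Traf5, Nfkb2 and Tnip1 were lower in every sham dantrolene than in every sham control library (5 of 35, against 4.38% of all genes), and no member was higher in every one (against 2.99%). None of the 5 passed the test: the log2 fold change was -0.45 ± 0.35 (SE) for Tab1, -0.70 ± 0.79 for Tab3 and -0.32 ± 0.38 for Traf5, all with an adjusted p of 1.00 by edgeR. Traf6 stood at 0.37 ± 0.42, Tnfrsf1b at -0.29 ± 0.31, Tnf at 0.43 ± 0.68, Rela at -0.10 ± 0.27, Nfkbia at 0.05 ± 0.53 and Nfkb1 at -0.03 ± 0.36 (SE). In all 14 of 35 members had a positive value (40.0%, against 52.5% of all genes), with a median of -0.03 against 0.02 over all genes.

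TAC dantrolene against sham dantrolene mice addressed overload in mice on the drug. No member was called by edgeR (0% of all genes, 0 genes) or DESeq2 (4 genes). Cflar was the 1 member of 35 with an unadjusted p under 0.05, against 1.71% of all genes tested (256 genes), and it was also the 1 member higher in every TAC dantrolene library (against 2.90%). Its log2 fold change was 0.56 ± 0.25 (SE; edgeR, adjusted p = 1.00). Tnf and Casp8 were lower in every TAC dantrolene library (2 of 35, against 1.96%), at -1.43 ± 0.70 for Tnf and -0.68 ± 0.35 for Casp8 (SE; edgeR, adjusted p = 1.00 for both). Rel stood at 0.86 ± 0.42, Chuk at 1.17 ± 0.57, Nfkb1 at 0.25 ± 0.36, Rela at -0.06 ± 0.27 and Nfkbia at -0.20 ± 0.53 (SE). In all 25 of 35 members had a positive value (71.4%, against 59.9% of all genes), with a median of 0.08, the same as over all genes.

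The interaction asked whether the drug's difference under TAC departed from its difference under sham. No member was called by edgeR (0% of all genes, 0 genes) or DESeq2 (1 gene), and 0 of 35 members had an unadjusted p under 0.05, against 2.82% of all genes tested (422 genes). Casp8 had the smallest p of the members, at -1.07 ± 0.50 on the log2 scale (SE; edgeR, unadjusted p = 0.0509, adjusted p = 1.00), followed by Tab1 at 0.93 ± 0.49, Vcam1 at -0.60 ± 0.48, Nfkb2 at 0.39 ± 0.33 and Nfkb1 at 0.52 ± 0.52. With the replicate number as a block 2 of 35 members had an unadjusted p under 0.05, against 11.6% of genes (1741 genes). These were Tab1 at 1.09 and Casp8 at -1.05 (edgeR, unadjusted p = 0.0146 and 0.0376, adjusted p = 0.420 and 0.426). Without the block, for Tnf the value was -0.68 ± 0.98, for Nfkbia 0.72 ± 0.75 and for Rela 0.19 ± 0.38 (SE). With these errors the interaction of Tnf or Nfkbia could be of either sign.

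Across libraries rather than groups, the heat map shows where the members were extreme. TAC dantrolene 2 held the highest value of 10 of the 35 members (28.6%, against 12.9% of all genes tested), Nfkb1, Nfkbia and Tnfaip3 among them, and the lowest of 1. Mitochondrially encoded transcripts took 1.71% of the counts of TAC dantrolene 2, against 7.10% to 22.4% in the other libraries. The part of this in its values was not tested. TAC dantrolene 3 held the highest of 8 members and the lowest of 8 (22.9% each, against 12.3% and 11.0% of all genes). TAC control 1 held the lowest of 8 (22.9%, against 16.4% of all genes) and the highest of 5 (14.3%, against 12.4%). Each of the 4 sham libraries that did not stand apart held the highest of 0 or 1 member, against 2.23% to 4.69% of all genes, and the lowest of 0 or 1, against 2.83% to 5.41%.

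**Figure D4:**
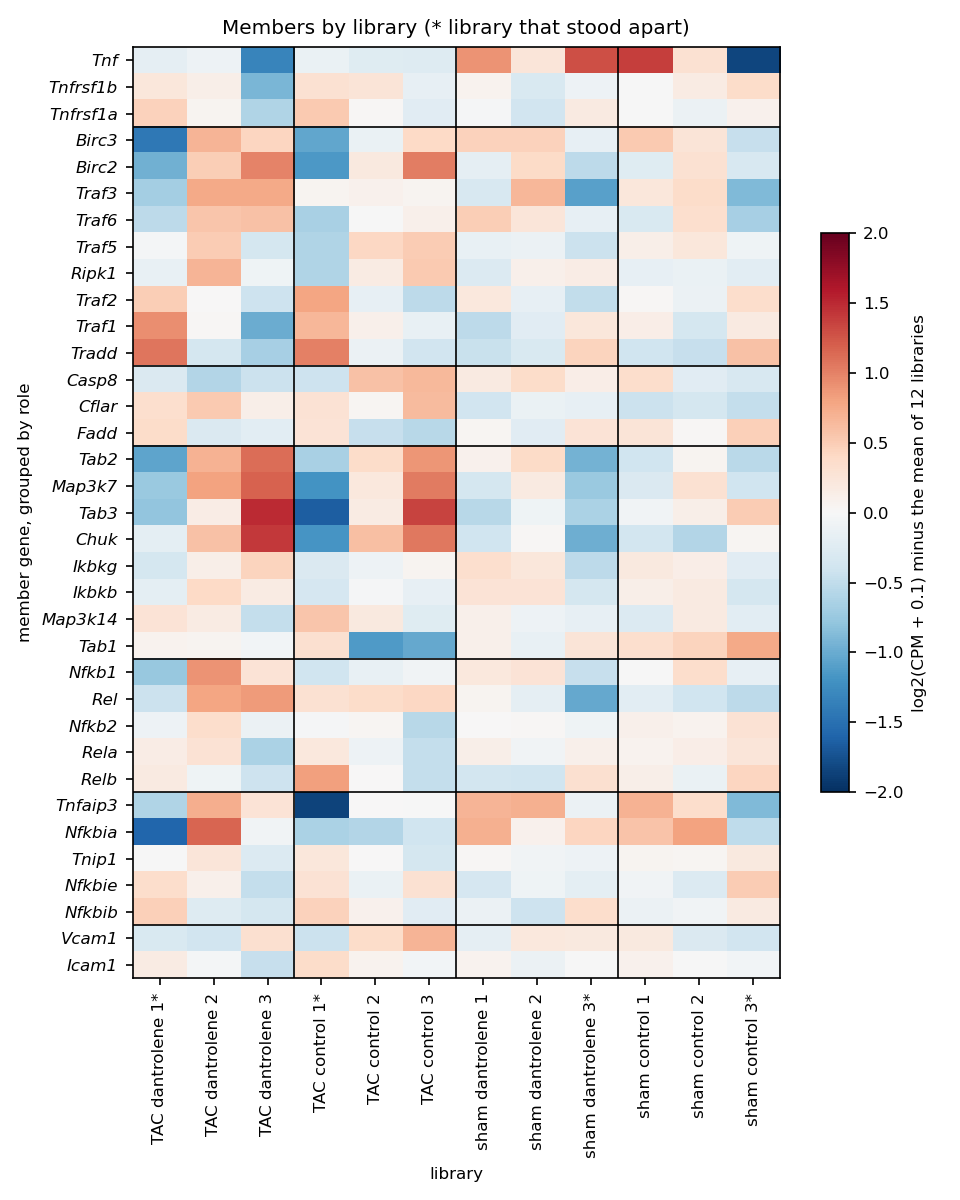
Each cell is the log2 of CPM plus 0.1 of a member (rows, grouped by role and sorted by the difference of the 4 libraries that stood apart, marked with an asterisk) minus its mean over 12 libraries (columns). Tab2 and Map3k7 are low in TAC dantrolene 1 and TAC control 1 and high in TAC dantrolene 3 and TAC control 3. Chuk is low in TAC control 1 and high in TAC dantrolene 3 and TAC control 3. Nfkbia is extreme in both directions within TAC dantrolene.

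Other genes of the pathway were counted from 3 lists: 21 further ligands and receptors of the TNF superfamily (14 tested), 30 further regulators of NF-κB (30 tested) and 35 known NF-κB targets (31 tested). The lists were chosen with earlier results of these data known. For TAC control over sham control edgeR called 0 of these genes and DESeq2 called 3, against 79 of all 14965 genes tested by DESeq2. At an unadjusted p under 0.05 stood 3 of 14 ligands and receptors (2 higher, 1 lower), 2 of 30 regulators and 3 of 31 targets (all lower), against 7.93% of all genes tested, and the median log2 fold changes were 0.40, 0.12 and -0.07 against 0.10 over all genes. Tnfrsf12a, the receptor of the cytokine TWEAK, had 125, 91.1 and 40.8 CPM in TAC dantrolene mice and 211, 184 and 80.9 CPM in TAC control mice. It had 71.3, 69.3 and 70.2 CPM in sham dantrolene mice and 36.1, 40.7 and 44.1 CPM in sham control mice. All TAC control libraries lay above all sham control libraries, at a log2 fold change of 1.98 ± 0.42 (SE; edgeR, adjusted p = 0.303; DESeq2, adjusted p = 0.00398). The part of the epicardial and mesothelial markers, which were higher in the same mice, was not tested. Tnfrsf25, the receptor of TL1A, was separate too, at 2.51 ± 0.603 CPM in TAC control mice, against 0.522 ± 0.245 CPM in sham control mice (SD, n = 3 each), 2.27 ± 0.59 on the log2 scale (edgeR, adjusted p = 0.453; DESeq2, adjusted p = 0.0213). Tnfrsf12a and Tnfrsf25 were the 2 of 14 ligands and receptors higher in every TAC control library, against 7.54% of all genes. Lcn2, an iron-binding acute phase protein, stood at 0.96 ± 0.46 (edgeR, adjusted p = 0.643).

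In the lower direction Zfp36, which encodes an RNA-binding protein that destabilises Tnf mRNA, had 33.9, 75.3 and 65.3 CPM in TAC dantrolene mice and 29.3, 49.0 and 63.2 CPM in TAC control mice. It had 284, 157 and 299.9 CPM in sham dantrolene mice and 264, 306 and 109 CPM in sham control mice. Each TAC library lay below each sham library. The share of all genes that separate in this way was not counted. Within the control mice 9.82% of all genes were lower in every TAC library, and within the dantrolene mice 1.96%. For TAC control over sham control the log2 fold change was -2.26 ± 0.47 (SE; edgeR, adjusted p = 0.302; DESeq2, adjusted p = 0.00142). For TAC dantrolene over sham dantrolene it was -2.09 ± 0.46 (edgeR, adjusted p = 1.00; DESeq2, adjusted p = 0.0429). Junb, an AP-1 subunit, had a mean of 72.1 ± 23.3 CPM in TAC control mice, against 248 ± 101 CPM in sham control mice (SD, n = 3 each), -1.78 ± 0.55 on the log2 scale (edgeR, adjusted p = 0.506). Without the 4 libraries that stood apart, Tnfrsf12a, Tnfrsf25, Zfp36 and Junb all passed for TAC control over sham control, with log2 fold changes of 1.77, 2.46, -2.37 and -1.87 in that order (edgeR, adjusted p = 0.0422, 0.0447, 0.0050 and 0.0179). Over all genes tested, 484 of 15069 passed there.

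Between TAC dantrolene and TAC control mice 0 of these genes were called by edgeR or DESeq2. At an unadjusted p under 0.05 stood 2 of 14 ligands and receptors, 1 of 30 regulators and 3 of 31 targets, all lower, against 3.25% of all genes tested, with medians of -0.30, -0.01 and -0.12 against 0.02 over all genes. Ccl5, a chemokine that attracts T cells, had 1.13, 0.210 and 0.0940 CPM in TAC dantrolene mice and 6.13, 1.46 and 1.76 CPM in TAC control mice. It had 1.95, 1.03 and 3.93 CPM in sham dantrolene mice and 2.95, 1.91 and 2.65 CPM in sham control mice. The TAC groups did not overlap, at -2.74 ± 0.86 on the log2 scale (SE; edgeR, adjusted p = 1.00), and at -3.32 without the 4 libraries that stood apart (edgeR, adjusted p = 0.0262). Without those 4 libraries 478 of 15069 genes tested passed. T and NK cell markers (7 of 9 tested) summed to 1.38 to 3.56 CPM in TAC dantrolene and 2.98 to 6.04 CPM in TAC control mice, whose part in the result was not tested. Tnfrsf25 stood at -1.50 ± 0.57 and the chemokine Cxcl5, under 1 CPM in every library, at -2.35 ± 0.91 (SE; edgeR, adjusted p = 1.00 for both). In the higher direction Gadd45b, a stress-induced gene, stood at 0.79 ± 0.47 and Ptx3, a pentraxin, at 1.22 ± 0.79 (SE; edgeR, adjusted p = 1.00 for both). Ptx3 was low, at 0.461 ± 0.171 CPM in TAC dantrolene and 0.197 ± 0.0620 CPM in TAC control mice (SD, n = 3 each). Of the 31 targets, 2 were higher in every TAC dantrolene library, Ptx3 among them, against 2.68% of all genes. Likewise 2 were lower in every one, Ccl5 among them, against 2.08%.

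The list of known NF-κB targets had its highest count of such genes, among the comparisons made, between TAC dantrolene and sham dantrolene mice. Of 31 tested, 24 were lower in TAC dantrolene, with a median log2 fold change of -0.53 against 0.08 over all genes, and 9 had an unadjusted p under 0.05, all lower, against 1.71% of all genes tested. They were Cxcl1, Cxcl2, Ccl2, Ccl5, Il1b, Junb, Ier3, Lif and Bcl2a1b, named after their values were seen. For sham dantrolene over sham control, 20 of the same 31 targets were higher, with a median of 0.27 against 0.02 over all genes. None of the 31 had an unadjusted p under 0.05 there by edgeR. Both comparisons use the sham dantrolene mice, so a gene that stood off in these mice moves in opposite directions by construction. Cxcl1, a chemokine that attracts neutrophils, had 0.283, 1.77 and 2.54 CPM in TAC dantrolene mice and 1.15, 4.69 and 6.76 CPM in TAC control mice. It had 14.3, 5.38 and 30.1 CPM in sham dantrolene mice and 15.6, 9.99 and 3.44 CPM in sham control mice. TAC dantrolene lay below every sham dantrolene library, at -3.42 ± 0.90 on the log2 scale (SE; edgeR, adjusted p = 1.00; DESeq2, adjusted p = 0.0429). Of the 31 targets 5 were lower in every TAC dantrolene library, against 1.96% of all genes, and 0 were higher in every one, against 2.90%. Il1b, which encodes interleukin-1β, stood at -3.24 ± 1.03 and Ier3, an early response gene, at -0.78 ± 0.26 (SE; edgeR, adjusted p = 1.00 for both).

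Sham dantrolene 3 weighed on this count. It held the highest value of the 12 libraries for 8 of the 9 genes, all but Ccl5, and without it 4 of the 31 targets had an unadjusted p under 0.05, Cxcl1, Il1b and Junb lower and C3 higher. Over all genes tested, 191 of 15246 had such a p without sham dantrolene 3. Without TAC dantrolene 3 the count was 5 of 31 targets, against 293 of 15310 genes. The 7 neutrophil markers summed to 75.2 CPM in that library and to 1.38 to 22.1 CPM in the other 11, and none of the 7 was at 0 in all 12 libraries. Their part in the result was not tested. Without the 4 libraries that stood apart, 10 of 30 targets had an unadjusted p under 0.05, 9 of them lower, against 1497 of 15069 genes tested. The 2 member targets Icam1 and Vcam1 stood at -0.07 ± 0.24 and -0.18 ± 0.34 in the same comparison (SE).

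**Figure D5:**
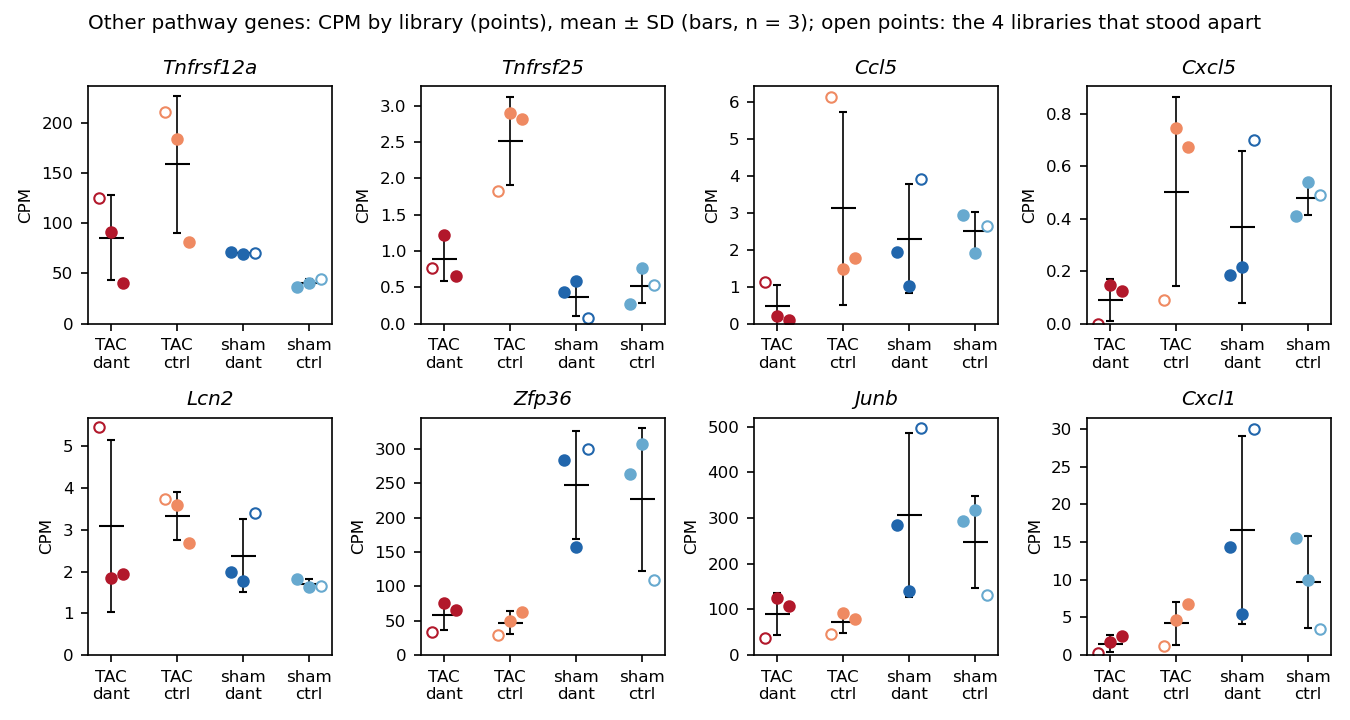
CPM of 8 other pathway genes in each library (points; open points are the 4 libraries that stood apart) with group mean ± SD (n = 3), y axes from 0. Tnfrsf12a and Tnfrsf25 have their highest means in TAC control, Zfp36 and Junb lie lower in all 6 TAC than in all 6 sham libraries, and Ccl5 lies lower in every TAC dantrolene than in every TAC control library. The share of all genes that separate as Zfp36 and Junb do was not counted, and 2.08% of all genes separate as Ccl5 does.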

How the data were processed

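Polyadenylated RNA of 12 left ventricles, 1 per mouse, was sequenced from a directional library in pairs of 150 nt, per the labels' protocols. GRCm38 is the genome build, and TopHat2, bcl2fastq and edgeR the tools, per the submitters' processing notes. Their versions, the program that counted reads and whether it used strand were not given in the sources used here. Raw read counts of 25319 genes and FPKM values of 25258 genes were deposited by the authors. The FPKM values equalled the counts times a library factor and a gene length within 0.05 on the log2 scale for all values of 1424 genes over 20 FPKM, and they were used only to compare levels between genes.

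Counts were fitted over all 4 groups with edgeR 4.0.16 (R 4.3.3, limma 3.58.1): filterByExpr (minimum count 10, minimum total 15), TMM scaling, robust quasi-likelihood test, 8 residual degrees of freedom and Benjamini-Hochberg adjustment over all 14965 genes at a threshold of 0.05. The SE of a log2 fold change is its size over the square root of F. CPM uses the TMM-scaled library size. The procedure was tested on simulated data. How often it would call a true change at the spread of these data is not given here. Depth was 25766378 to 38363106 counts per library, and replicates of 1 group always differed by more than counting noise.

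The members and lists were chosen with earlier results of these data known. Fold changes are given for the 10 members with the smallest p in TAC dantrolene against TAC control and in TAC control against sham control, for 5 in each other comparison, and for Tnf, Nfkb1, Rela and Nfkbia; from the other lists, for the 3 smallest p on either side in the first 2 comparisons. Values by library are given for the members so named there and for the ligand, receptors, subunits, inhibitors and targets. Any other gene named was chosen after its values were seen, and 1 gene that the rule selects is not reported here. Positions and overlaps come from GENCODE (GRCm38), which matched 25116 of the 25319 identifiers.

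In both comparisons of the drug, deviations from the group means correlated between mice of the same replicate number. The values were 0.556, 0.300 and 0.613 between TAC dantrolene and TAC control, and 0.465, 0.366 and 0.672 between sham dantrolene and sham control. Across different numbers they ran from -0.561 to 0.221 and from -0.616 to 0.375. In each arm the libraries that stood apart share a number, so these correlations cannot show that the numbers mark pairs. Nothing in the labels says what a number shares. Alternatives were DESeq2 1.42.0, RLE scaling, no filter, a fit of 2 groups alone, a replicate block, leaving out each library and leaving out the 4 libraries that stood apart. Those 4 libraries stood apart by their scores on the first principal component of these same data.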

Additional observations from a re-analysis of the deposited data

How the results depend on the processing

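The number of genes called over the whole table depended on the fit. For TAC control over sham control edgeR called 0 genes, DESeq2 79, the fit of 2 groups alone 1, no filter 3, leaving out 1 library 0 to 15, and leaving out the 4 libraries that stood apart 484. For TAC dantrolene over TAC control DESeq2 called 12, no filter 1, leaving out 1 library 0 to 1 and leaving out those 4 libraries 478. For TAC dantrolene over sham dantrolene DESeq2 called 4. For the interaction DESeq2 called 1 and leaving out those 4 libraries gave 7. Members called stayed at 0 except Tab1, which made 1 in TAC control over sham control without TAC control 1 (0 to 1 when 1 library was left out) and without the 4 libraries, and 1 in TAC dantrolene over TAC control without the 4 libraries. The cause was not tested.

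The replicate block called 0 genes and 0 members in all comparisons at the adjusted threshold. The median log2 fold change of the members, when 1 library was left out, ran from -0.0082 to 0.13 for TAC dantrolene over TAC control, from -0.029 to 0.18 for TAC control over sham control, from -0.074 to 0.048 for sham dantrolene over sham control, from 0.014 to 0.17 for TAC dantrolene over sham dantrolene and from 0.018 to 0.23 for the interaction. In TAC control over sham control the same-numbered correlations were -0.294, 0.283 and -0.304, and in TAC dantrolene over sham dantrolene -0.377, 0.270 and -0.313, so there a shared number did not always go with a positive correlation. The count of known NF-κB targets with an unadjusted p under 0.05 in TAC dantrolene over sham dantrolene, an alternative chosen after seeing the data, was 5 with the block, against 9 without it, and 4 to 11 when 1 library was left out. Over all genes tested it was 38 of 14360 with the block, 256 of 14965 without it, and 191 to 1212 genes when 1 library was left out.

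Of 62 named fold changes 51 kept their sign under every alternative run. The log2 fold changes that turned did so as follows when 1 library was left out. For TAC dantrolene over TAC control, Nfkbia ran from -0.10 to 1.19, Rela from -0.092 to 0.32 and Tnf from -0.51 to 0.082. For TAC control over sham control, Tnf ran from -1.26 to 0.20. For sham dantrolene over sham control, Nfkb1 ran from -0.16 to 0.16, Nfkbia from -0.25 to 0.30 and Tnf from -0.070 to 1.37, and without the 4 libraries they were 0.078, -0.24 and -0.35. For TAC dantrolene over sham dantrolene, Nfkb1 ran from -0.19 to 0.53, Nfkbia from -1.07 to 0.20 and Rela from -0.24 to 0.17, and without the 4 libraries Nfkbia was 0.19. The interaction of Nfkbia ran from -0.14 to 1.14. Tnf, Tnfaip3 and Tab3 rest on few reads, and Il6 on 0 to 4 reads per library, which limits what could be detected for them.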

Other observations

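Among the other genes of the pathway, Tnfrsf12a had an interaction of -1.69 ± 0.57 on the log2 scale (SE; edgeR, adjusted p = 1.00), chosen after its values were seen. Tnfrsf12a was 125, 91.1 and 40.8 CPM in TAC dantrolene against 211, 184 and 80.9 CPM in TAC control mice, and the lowest TAC dantrolene library lay within the sham control range. Of the members, Tnip1, Nfkb2 and Icam1 varied least between mice of a group, with biological coefficients of variation of 0.234, 0.238 and 0.240, and Tab3 and Tnf varied most, with 0.625 and 0.570, against 0.443 in common over all genes tested.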
